A study of Mus musculus with 5 samples.

Results

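CD8 T cells were taken from 4 droplet single-cell libraries of mouse kidney by a fixed gate on raw counts of unique molecular identifiers (UMIs). A cell was kept with at least 200 detected genes and at most 50% mitochondrial UMIs. A kept cell was called a CD8 T cell when it held at least 2 UMIs of Cd3d, Cd3e and Cd3g together, at least 1 UMI of Cd8a and Cd8b1 together, and no UMI of Cd4 or Csf1r, the receptor of mononuclear phagocytes. The members were thus chosen by their measured UMIs of these 7 genes, which are given as a description and not tested. The gate held 230 of 13823 kept cells, or 1.66%. The animals were C57/BL6 mice of 8 weeks, and each library pooled 3 of them. The groups were sham surgery (day 0), unilateral ureteric obstruction (UUO) for 2 days, UUO for 7 days, and reversed UUO, in which the obstruction was removed and the kidney was taken 7 days later, on experimental day 14. Dissociation took place on ice and dead cells were sorted away by a dye, so every share below is a share of recovered live cells. Each group had 1 library. The spread between animals is therefore unknown, no test between time points was possible, library and time point cannot be told apart, and intervals given for shares and ratios cover counting error only.

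CD8 T cells recognise peptides on class I MHC molecules through a T cell receptor, which signals through the CD3 chains, with CD8 as coreceptor. Once activated they can kill target cells through granule proteins, namely perforin and the granzymes, and through Fas ligand, and they secrete chemokines such as Ccl5. Naive and central memory cells circulate through lymph nodes with the aid of the chemokine receptor Ccr7 and the transcription factor Klf2, whereas cells that settle in a tissue lose these genes and gain Cxcr6, Rgs1 and other residence genes. In an obstructed kidney, T cells enter the interstitium between tubules together with monocytes and macrophages.

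Promoter sequences are shown for 2 gene groups on which the results below turn, the genes that separated CD8 from CD4 T cells and the interferon-stimulated genes. Sequences are from RefSeq on GRCm38.p6, read 5′ to 3′ on the strand of the gene, and start 160 bases before the annotated start. The stretch for Nkg7 ends 66 bases before that start and the stretch for Ifit1 ends 19 bases before it, where another annotated transcript begins. The first 4 stretches belong to Nkg7 (a granule membrane protein, chr7:43436978-43437072, plus strand), Gzma (granzyme A, chr13:113100982-113101141, minus strand), Klrc1 (the inhibitory receptor NKG2A, chr6:129678974-129679133, minus strand) and Klrk1 (the activating receptor NKG2D, chr6:129623865-129624024, minus strand). Capitals mark the RUNX core TGTGGT or its reverse complement ACCACA. Runx3, which binds this core, is a transcription factor of the CD8 lineage.
Nkg7: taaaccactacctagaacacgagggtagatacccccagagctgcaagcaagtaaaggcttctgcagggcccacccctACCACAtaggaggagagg
Gzma: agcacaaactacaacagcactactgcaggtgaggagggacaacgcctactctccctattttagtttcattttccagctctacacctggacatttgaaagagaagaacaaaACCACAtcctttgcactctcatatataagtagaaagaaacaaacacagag
Klrc1: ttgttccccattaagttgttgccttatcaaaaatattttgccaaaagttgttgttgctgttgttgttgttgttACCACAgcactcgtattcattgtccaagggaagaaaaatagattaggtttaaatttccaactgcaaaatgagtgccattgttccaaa
Klrk1: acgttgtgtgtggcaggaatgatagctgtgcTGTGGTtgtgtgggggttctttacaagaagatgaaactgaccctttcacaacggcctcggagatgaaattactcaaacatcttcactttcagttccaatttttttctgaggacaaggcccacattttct

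The other 3 stretches belong to Isg15 (a ubiquitin-like protein, chr4:156200819-156200978, minus strand), Ifit1 (chr19:34640729-34640870, plus strand) and Ifit3 (chr19:34583369-34583528, plus strand), the last 2 being RNA-binding antiviral proteins. Capitals mark the interferon-stimulated response element in the form GAAANNGAAA or TTTCNNTTTC, in which N is any base. Neighbouring matches overlap in Isg15.
Isg15: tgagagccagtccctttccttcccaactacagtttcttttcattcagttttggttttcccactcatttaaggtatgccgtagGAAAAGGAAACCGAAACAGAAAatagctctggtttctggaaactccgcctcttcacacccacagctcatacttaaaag
Ifit1: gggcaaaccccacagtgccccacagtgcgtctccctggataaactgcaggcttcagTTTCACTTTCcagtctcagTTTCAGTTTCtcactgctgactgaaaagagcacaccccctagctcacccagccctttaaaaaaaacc
Ifit3: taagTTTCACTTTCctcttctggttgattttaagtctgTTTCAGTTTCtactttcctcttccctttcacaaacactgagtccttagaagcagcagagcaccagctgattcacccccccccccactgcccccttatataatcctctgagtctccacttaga

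CD8 T cells were 8 in the sham library and 45 to 98 in the other 3. The sham library gave 8 of 3933 kept cells (0.203%, exact Clopper-Pearson 95% interval 0.0879 to 0.400%). Day 2 gave 45 of 2207 (2.04%, 1.49 to 2.72%), day 7 gave 79 of 4447 (1.78%, 1.41 to 2.21%) and reversed UUO gave 98 of 3236 (3.03%, 2.47 to 3.68%). The interval of the sham share lay below the intervals of the other libraries, those of day 2 and day 7 overlapped, and the reversed interval lay above that of day 7 and overlapped that of day 2. The sham share was the one most open to the filter on mitochondrial UMIs, which made up a median of 33.7% of UMIs in its kept cells against 2.98 to 9.80% in the others. With at most 20% mitochondrial UMIs it was 7 of 648 cells (1.08%, 0.435 to 2.21%), against 2.77% (2.01 to 3.73%) at day 2, 1.84% (1.46 to 2.30%) at day 7 and 4.49% (3.64 to 5.47%) after reversal. The sham interval then overlapped those of day 2 and day 7, and the separation of sham from these libraries was lost. Of the kept cells with a UMI of Ptprc, the common leukocyte antigen, CD8 T cells were 5.88% in sham, 5.27% at day 2, 2.57% at day 7 and 8.48% after reversal.

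The balance of CD8 to CD4 T cells differed between libraries. CD4 T cells were gated in the same way with at least 1 Cd4 UMI and no Cd8a or Cd8b1 UMI, which gave 1, 15, 66 and 53 cells. CD8 cells were 45 of the 60 cells of both gates at day 2 (75.0%, 62.1 to 85.3%), 79 of 145 at day 7 (54.5%, 46.0 to 62.8%) and 98 of 151 after reversal (64.9%, 56.7 to 72.5%). In sham they were 8 of 9. The intervals of day 2 and day 7 overlapped only at their edge, and the interval of the reversed library overlapped both. A further 328 cells passed the CD3 limit with neither CD8 nor CD4 UMIs. They could hold T cells whose coreceptor was not captured, other T cells and cells that picked up CD3 UMIs, which was not tested.

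**Figure D1:**
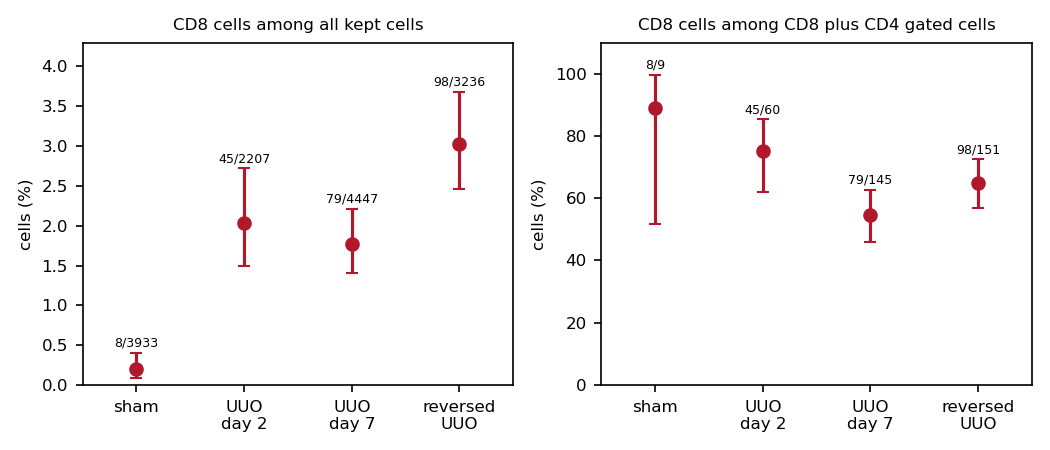
CD8 T cells by library as a percent of kept cells (left panel) and as a percent of the CD8 and CD4 gated cells (right panel), both in percent with exact Clopper-Pearson 95% intervals. The sham point at 0.203% lies below the other 3 libraries on the left, and on the right the day 7 point at 54.5% is the lowest.

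The label was checked against genes that the gate did not use. Trac, the constant region of the T cell receptor alpha chain, had UMIs in 201 of the 230 cells, and Trbc1 or Trbc2, the constant regions of the beta chain, in 221. No cell held a UMI of the B cell gene Cd79a or of Zbtb16, the factor of innate-like T cells, 2 held Foxp3, 4 held Xcr1 or Clec9a of type 1 dendritic cells, and 9 held the NK receptor gene Klrb1c. A UMI of a gamma or delta constant region was present in 37 cells, 4 of which had none of Trac. Most cells were well inside the limits: the median was 10 CD3 UMIs and 7 CD8 UMIs, 173 cells held both CD8 chains, 12 cells held exactly 2 CD3 UMIs and 32 exactly 1 CD8 UMI. Just outside lay 23 cells with 1 CD3 UMI, 6 with a Cd4 UMI and 30 with a Csf1r UMI. No CD8 barcode occurred in more than 1 library.

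UMIs of other cell types were present in the gate and differed by library. The 7 mononuclear phagocyte markers other than Csf1r summed to 101 counts per 1000000 UMIs (CPM) in sham, 244 at day 2, 2225 at day 7 and 791 after reversal, and 62.2, 100 and 94.9% of CD8 cells in the last 3 libraries held at least 1 such UMI. The same list gave 1705 CPM in tubule cells at day 7, and 394, 1839 and 754 CPM in CD4 T cells at day 2, day 7 and after reversal. The 10 tubule markers summed to 2427, 1181, 562 and 2213 CPM in CD8 cells. Cells with at least 20 UMIs of either list numbered 0, 3, 8 and 7. Values without them, an alternative chosen after seeing the data, are given for part of the results. The remaining cells still held phagocyte and tubule UMIs. In them C1qa was at 27.5, 432 and 129 CPM at day 2, day 7 and after reversal, and Kap at 77.0, 172 and 696 CPM. NK, B cell, neutrophil, endothelial, red cell and stromal lists each stayed at or below 210 CPM in every library. The list of type 1 dendritic cells, which can carry Cd8a, had no UMI in sham and was at 230 CPM at day 2, 141 at day 7 and 150 after reversal. Most of this was Cd24a, at 216, 95.5 and 110 CPM, with 33 of its 47 UMIs in 1 cell at day 2 and 38 of 46 in 1 cell after reversal, while Xcr1 and Clec9a were at or below 15.9 CPM. Cd24a stood at 710, 592 and 271 CPM in tubule cells. Summed CD8 UMIs were 19780 in sham, 217623 at day 2, 377036 at day 7 and 419874 after reversal, with medians of 1723, 3834, 3614 and 3176.5 per cell. A count of 0 therefore allows up to 152 CPM in sham (3 UMIs) but 7.15 to 13.8 CPM in the others.

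UMIs of effector genes were found in most CD8 cells. Ccl5 or Nkg7 had UMIs in 218 cells. Free RNA could add to such counts, and its part was not tested. At 1000 UMIs per cell, Ccl5 was found in 77.8, 79.7 and 81.6% of CD8 cells at day 2, day 7 and after reversal, against 3.63, 8.32 and 4.55% of tubule cells. Nkg7 was found in 86.7, 84.8 and 74.5%, against at most 2.64% of tubule cells. Median depths were 3834, 3614 and 3176.5 UMIs in CD8 cells and 5534, 5492 and 4679.5 in tubule cells. Ccr7 or Lef1 had UMIs in 51, of which 40 also held Ccl5, so 11 cells held one of these naive genes without Ccl5, and 15 cells held none of the 3 genes. Cxcr6, a chemokine receptor of tissue-resident T cells, had UMIs in 166 cells: 7 of 8 in sham, 27 of 45 at day 2, 53 of 79 at day 7 and 79 of 98 after reversal. Any of Gzma, Gzmb and Gzmk was found in 103 cells. Gzmk, the granzyme of memory-like CD8 T cells, was in 76, Gzmb in 42 and Gzma in 24. The granzymes overlapped in part: 22 cells held Gzmb and Gzmk, 12 held Gzma and Gzmk, and 11 held Gzma and Gzmb. Cxcr6 was found in 64 of the 76 Gzmk cells and in 17 of the 24 Gzma cells. These counts are from unthinned cells and can depend on depth, free RNA and undetected transcripts. A cell without a UMI is not shown to lack the gene.

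The CD8 and CD4 T cells of the same libraries were compared gene by gene. UMIs were summed per library and gate at day 2, day 7 and reversed UUO, and edgeR's quasi-likelihood test with library as a block was run on 4057 genes with Benjamini-Hochberg adjustment, so that n is 3 libraries and the test asks whether a difference recurs across them. Genes of the gates were left out of the calls. CD8 cells were higher in 91 genes (2.24% of those tested) and lower in 87 (2.14%), and 561 genes had an unadjusted p under 0.05. Of the 91 higher genes, 8 were on the cytotoxic effector list and 6 on the NK-type receptor list. Of 22 cytotoxic effector genes tested, 8 were higher (Ccl5, Cst7, Ctsw, Eomes, Fasl, Gzma, Gzmk and Nkg7) and 1 was lower (Ifng), with a median log2 difference of 0.78 against 0.01 over all tested genes. Of 13 NK-type receptor genes, 6 were higher (Cd160, Klra7, Klrc1, Klrc2, Klrd1 and Klrk1) and none lower, with a median of 2.06.

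Ccl5, a chemokine for T cells and monocytes (11:83525778-83530518 on GRCm38), was at 10091 CPM in CD8 cells at day 2, 4923 at day 7 and 5337 after reversal, against 496, 789 and 532 CPM in CD4 cells. The 2 gates did not overlap in any library, and the log2 difference was 3.44 ± 0.20 (SE derived from the F statistic of the test, edgeR adjusted p = 1.6e-15). Nkg7 was at 2178, 2111 and 1915 CPM against 758, 854 and 546 CPM (log2 difference 1.63 ± 0.16, adjusted p = 6.14e-09). Gzma stood at 542, 329 and 28.6 CPM in CD8 cells, whereas CD4 cells held 4 UMIs of it in all (log2 difference 5.23 ± 0.41, adjusted p = 6.01e-12). Its CD8 level rested on few cells: 1 cell held 68 of the 118 UMIs at day 2, and 1 held 102 of the 124 at day 7. Gzmk was at 50.5, 95.5 and 191 CPM against 0, 22.8 and 8.87 CPM (log2 difference 3.14 ± 0.44, adjusted p = 4.26e-06). Gzmb did not pass the test (log2 difference 0.50 ± 0.32, adjusted p = 0.543): CD4 cells had the higher level at day 2, 700 CPM against 308 CPM, and the lower one in the other libraries. Prf1 (perforin) had 15 UMIs in CD8 cells and none in CD4 cells and did not pass either (adjusted p = 0.124).

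Among the receptors, Klrd1 (CD94, the partner chain of the NKG2 receptors) was at 230, 210 and 260 CPM in CD8 cells against 0, 29.3 and 44.4 CPM in CD4 cells (log2 difference 2.97 ± 0.31, adjusted p = 1.62e-08). Klrk1 was at 299, 186 and 202 CPM against 29.2, 48.9 and 26.6 CPM (log2 difference 2.61 ± 0.30, adjusted p = 8.87e-08). Both were higher in each of the 3 libraries without overlap between gates. Klrc1 had 88 UMIs in CD8 cells and none in CD4 cells, which makes it at least 17.4-fold higher against a floor of 3 UMIs over the group (adjusted p = 6.38e-08). Klrc1 and Klrc2 are near-identical neighbours, as are the Klra genes, and reads could be split between them. Eomes, a T-box factor of memory CD8 and NK cells, had 51 UMIs against 4, a pooled ratio of 7.55 with a counting interval of 2.77 to 28.8 (adjusted p = 0.000876). Runx3 was at 257, 159 and 212 CPM against 131, 62.0 and 88.7 CPM (log2 difference 1.35 ± 0.25, adjusted p = 0.000337). Ly6c2, a surface protein of effector and memory CD8 cells and of monocytes, was at 1181, 668 and 331 CPM against 190, 65.2 and 160 CPM (log2 difference 2.39 ± 0.27, adjusted p = 5.05e-08).

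Several genes of helper and regulatory T cells were among the 87 that were lower in CD8 than in CD4 cells. Ccl1, a chemokine of activated T cells, was at 2566 and 1963 CPM in CD4 cells at day 2 and day 7 and at 39.9 CPM after reversal, against 41.4, 5.30 and 2.38 CPM in CD8 cells (log2 difference -6.78 ± 0.52, adjusted p = 6.01e-12). Cd40lg, the signal by which helper T cells activate B cells and dendritic cells, was at 146, 108 and 160 CPM in CD4 cells against 0, 18.6 and 11.9 CPM (log2 difference -3.35 ± 0.43, adjusted p = 1.03e-06). Foxp3, the factor of regulatory T cells, had 7 UMIs in CD8 cells and 43 in CD4 cells (log2 difference -3.08 ± 0.74, adjusted p = 0.00751). Of 10 checkpoint and activation genes, 5 were lower (Cd44, Ctla4, Icos, Tnfrsf4 and Tnfrsf9) and 1 was higher (Cd7), beside 2.14% lower and 2.24% higher of all tested genes. The median log2 difference of this list was -0.87, against 0.01 over all tested genes. Tnfrsf4 (OX40) was at 23.0, 90.2 and 85.7 CPM against 350, 352 and 408 CPM (log2 difference -2.26 ± 0.25, adjusted p = 4.35e-08). Ctla4 was at 4.60, 29.2 and 23.8 CPM against 204, 134 and 79.9 CPM (log2 difference -2.37 ± 0.39, adjusted p = 8.1e-05). Each of these genes was lower in CD8 cells in every library.

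Other gene groups moved in part or not at all between CD8 and CD4 cells. The counts below are to be read beside 2.14% lower and 2.24% higher in CD8 cells over all tested genes. Of 12 T cell receptor complex genes tested, 5 were lower in CD8 cells (Cd28, Cd5, Lat, Trac and Trbc1); without the cells rich in tubule or phagocyte UMIs Cd5 alone of these was called, with a log2 difference of -1.30 and an adjusted p of 0.00035, while Trac was at -0.39 (adjusted p = 0.26). Of 16 immediate-early and dissociation genes 5 were lower (Dusp1, Fos, Junb, Jund and Nfkbia), of 16 interferon-stimulated genes 1 was lower (Ifi27l2a), and of 19 cell cycle genes none passed in either direction. In this order, the list medians were -0.32, -0.35 and 0.20, against 0.01 over all tested genes. Cxcr6 was not called (0.36 ± 0.22, adjusted p = 0.509), with 368, 613 and 631 CPM in CD8 cells against 423, 427 and 523 CPM in CD4 cells. Tubule markers summed to 408, 388 and 1836 CPM in CD4 cells, and 2 of the 6 tested, Atp6v1g3 and Slc34a1, were among the calls higher in CD8 cells, as was Cd24a of the dendritic cell list (log2 difference 1.79 ± 0.35, adjusted p = 0.000806), which was also higher than in NK cells (2.09 ± 0.47, adjusted p = 0.00329). Without the tubule- or phagocyte-rich cells, 69 genes were higher and 82 lower, and 114 of the 178 calls remained. Ifng was then at -1.06 and not called (adjusted p = 0.14), against -1.37 over all cells. Leaving out the reversed library gave 56 higher genes, and leaving out day 2 gave 40 lower ones. Cd160 and Cst7 then lost their call in both cases, at log2 differences of 1.64 and 0.98 without the reversed library and of 1.83 and 1.27 without day 2, against 2.06 and 1.25 over all 3. Fasl was not called without the reversed library, at 1.51 against 1.90, nor Eomes without day 7, at 3.46 against 3.03. DESeq2 on the same sums called 28 higher and 28 lower, among them Ccl5, Nkg7, Gzma, Klrd1, Klrk1, Klrc1, Cd40lg, Ctla4 and Tnfrsf4.

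**Figure D2:**
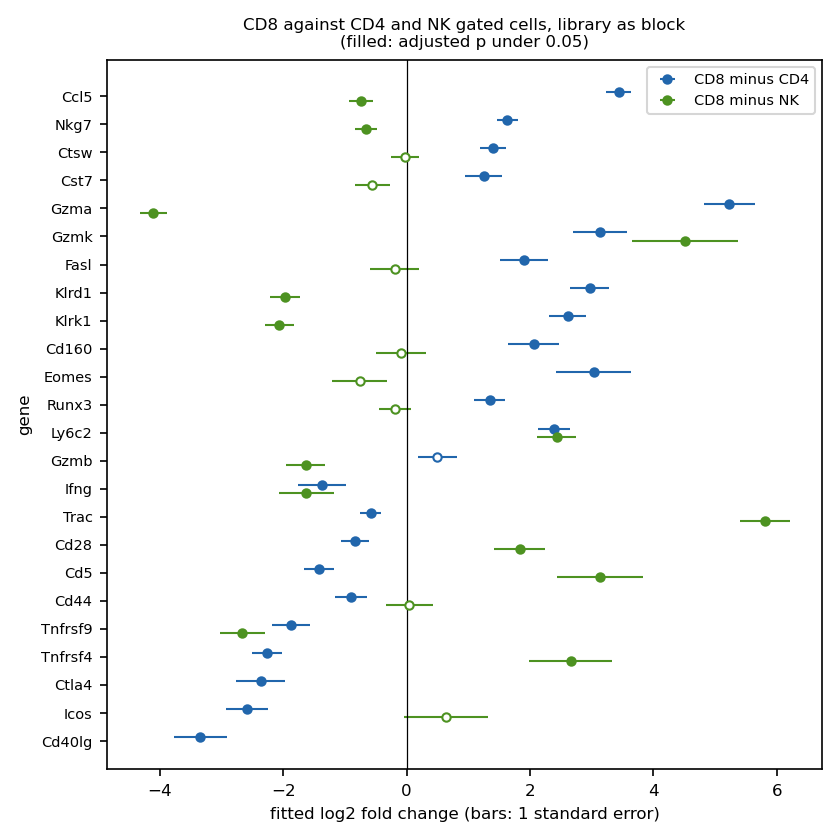
Log2 difference of CD8 against CD4 T cells (blue) and of CD8 T cells against NK cells (green) for named genes. Bars are 1 SE derived from the edgeR F statistic, and points are filled where the adjusted p was under 0.05. Ccl5 and Gzma are right of 0 against CD4 cells and left of 0 against NK cells; genes with no UMI in a gate are left out.

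Promoters were searched for the RUNX core on both strands in the 250 bases before the start. Of 27025 genes with a promoter entry 15.9% held at least 1 match, and of the 3153 tested genes with a promoter entry 13.6% did. Genes higher in CD8 than in CD4 cells held it in 14 of 58 (24.1%) and genes lower in CD8 cells in 7 of 64 (10.9%). Among the 11 called cytotoxic and NK-type receptor genes with an entry, 7 held it (63.6%): Cd160, Cst7, Gzma, Klrc1, Klrc2, Klrk1 and Nkg7. Over the whole lists, called or not, it was present in 9 of 18 cytotoxic genes, 8 of 13 NK-type receptor genes (61.5%), 2 of 11 checkpoint genes and none of 11 naive genes. The T-box core AGGTGT or ACACCT was present in 13.6% of all these genes, in 15 of 58 genes higher in CD8 cells (25.9%) and in 8 of 64 lower ones. A match of this length is a description of the sequence; it does not show a binding site.

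NK cells were the second comparison. They were gated by at least 2 UMIs of Ncr1, Klrb1c and Klre1 together with no UMI of the 3 CD3 genes, which gave 25 cells at day 2 and 51 at day 7. The NK sums came from these 2 libraries, while the reversed CD8 and CD4 sums stayed in the same fit and share its estimate of the spread. CD8 T cells were higher in 99 genes (2.44%) and lower in 102 (2.51%). Against NK cells the cytotoxic list was lower in CD8 cells: 12 of 22 genes were lower and 1, Gzmk, was higher, with a median of -1.21 against 0.02 over all genes. Without day 2, which leaves 1 NK sum whose spread is assumed to be that of the others, 14 genes were higher and 37 lower. Of 13 NK-type receptor genes 10 were lower and none was higher. Of 12 T cell receptor complex genes 7 were higher (Cd28, Cd5, Lat, Thy1, Trac, Trbc1 and Trbc2) and none lower. The gates chose CD8 cells by CD3 UMIs, and NK cells by their absence and by NK receptor UMIs. The counts of both receptor lists are therefore set in part by this choice and are given as a description.

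Among the granzymes lower in CD8 cells, Gzma showed the widest gap, at 542 and 329 CPM in CD8 cells against 9586 and 6466 CPM in NK cells (log2 difference -4.11 ± 0.22, adjusted p = 1.36e-16). Prf1 had 6 UMIs in CD8 cells and 37 in NK cells (-3.62 ± 0.77, adjusted p = 0.00218). Gzmb was at 308 and 239 CPM against 2032 and 539 CPM (-1.64 ± 0.31, adjusted p = 0.000452). The chemokine gene Ccl3 was at 23.0 and 148 CPM against 3026 and 306 CPM (-3.58 ± 0.53, adjusted p = 7.46e-06). Ccl5 and Nkg7 were nearer to the NK level, with log2 differences of -0.74 ± 0.20 and -0.65 ± 0.18 and adjusted p-values of 0.0206 and 0.0228. Neither gene was called without the tubule- or phagocyte-rich cells, at -0.50 (adjusted p = 0.16) and -0.45 (adjusted p = 0.20). Prf1, Gzmb, Ccl3 and Klrc1 also lost their call without day 2, at log2 differences of -2.51, -1.08, -1.34 and -1.70. Klrk1 and Klrd1, which were higher in CD8 than in CD4 cells, were lower than in NK cells (-2.06 ± 0.24 and -1.98 ± 0.24). NK cells were above CD8 cells, and CD8 cells above CD4 cells, for Gzma, Klrk1, Klrd1 and Klrc1 in both libraries.

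Gzmk and Cxcr6 separated CD8 from NK cells in the other direction. Gzmk had 47 UMIs in CD8 cells and 1 in NK cells, a ratio of 22.1 with a counting interval of 3.78 to 892 (log2 difference 4.51 ± 0.86, adjusted p = 0.000539). Cxcr6 (9:123806475-123811760) was at 368 and 613 CPM against 0 and 84.5 CPM (3.31 ± 0.38, adjusted p = 5.18e-08). Bcl11b, a factor of T cell commitment, had 167 UMIs against 2 (5.27 ± 0.52, adjusted p = 1.93e-09). Ly6c2 was higher in CD8 cells (2.43 ± 0.32), as were the chemokine receptor Cxcr3 (1.76 ± 0.36) and the interleukin-7 receptor Il7r (1.53 ± 0.43), while Klf2 was lower (-0.85 ± 0.22). Pdcd1, the checkpoint receptor PD-1, had UMIs in CD8 cells at 50.5 and 66.3 CPM and none in NK cells at these times, at least 5.65-fold higher. Of 19 cell cycle genes 4 were higher in CD8 cells (Rrm2, Top2a, Tuba1b and Ube2c), beside 2.44% of all tested genes, with a median of 1.16 against 0.02 over all. None of these 4 kept its call without day 2, nor did Gzmk, Ly6c2, Cxcr3, Il7r and Klf2, whose log2 differences were then 4.27, 2.40, 2.16, 0.92 and -0.98. Without day 7, Gzmk, Cxcr3 and Klf2 were not called, at 6.50, 1.26 and -0.74.

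**Figure D3:**
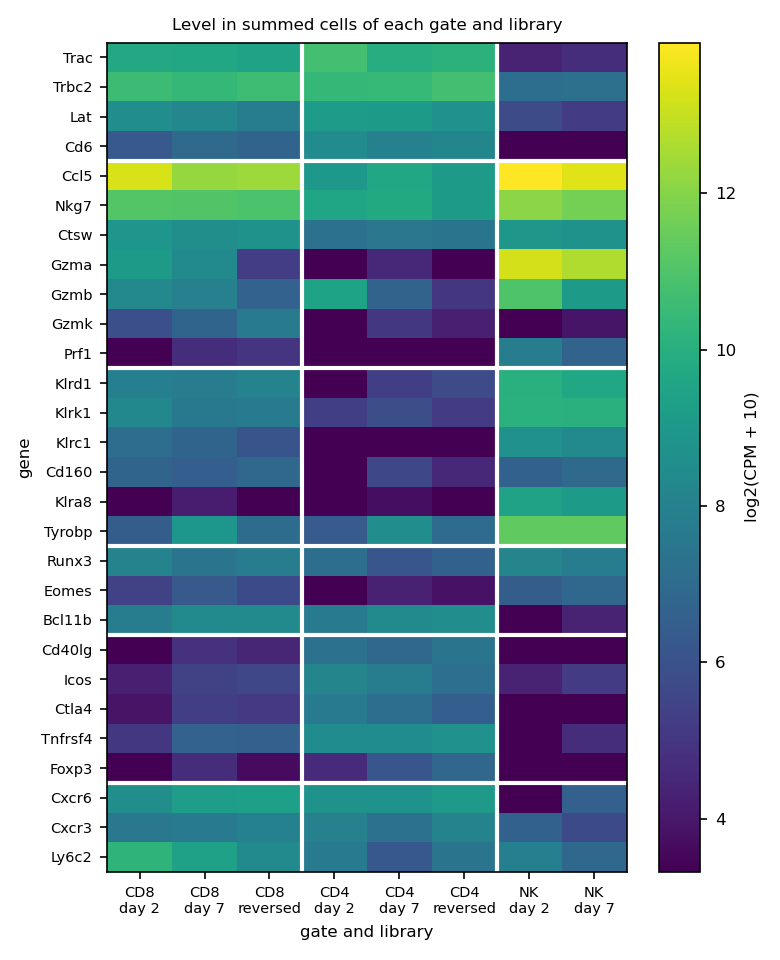
Heat map of log2(CPM + 10) for named genes (rows) in CD8 and CD4 T cells at day 2, day 7 and reversed UUO and in NK cells at day 2 and day 7 (columns). Read along a row: Gzma is highest in the NK columns, Gzmk is higher in the CD8 columns than in the others, Cxcr6 is lowest in the NK columns, and Cd40lg and Tnfrsf4 are highest in the CD4 columns.

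Between libraries, CD8 cells were compared over genes with at least 30 UMIs in both together, as log2 ratios of CPM with a pseudocount of 10 CPM. Changes of low genes are understated on this scale. Day 7 was at least 2-fold above day 2 in 182 of 2711 genes (6.71%) and at least 2-fold below it in 52 (1.92%). Reversed UUO was at least 2-fold above day 7 in 128 of 3715 genes (3.45%) and below it in 120 (3.23%), and against day 2 it was above in 212 of 2900 (7.31%) and below in 43 (1.48%). With TMM factors, which shifted the day 7 to day 2 and the reversed to day 2 ratios by -0.10 and -0.12 and the reversed to day 7 ratios by -0.01, the last pair of counts was 166 and 69. The median ratio over all genes was 0.16 for day 7 over day 2, -0.05 for reversed over day 7 and 0.12 for reversed over day 2, and list medians are to be read against these.

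The granzymes followed different courses across the libraries. Gzma was at 0, 542, 329 and 28.6 CPM in sham, day 2, day 7 and reversed UUO, and the log2 ratio of reversed over day 7 was -3.13 (-3.82 to -2.44). The high levels came from few cells: 9 cells held it at day 2, where 1 cell held 68 of 118 UMIs, and 9 held it at day 7, where 1 cell held 102 of 124. Gzmb was at 303, 308, 239 and 90.5 CPM, a ratio of -1.31 (-1.84 to -0.79) for reversed over day 7. Gzmk went the other way, at 50.5 CPM at day 2, 95.5 at day 7 and 191 after reversal, with a ratio of 1.73 (0.92 to 2.57) for reversed over day 2. In cells thinned to 1000 UMIs each, 1 of 45 cells at day 2 held Gzmk (2.22%, 0.0562 to 11.8%), 9 of 79 at day 7 (11.4%, 5.34 to 20.5%) and 21 of 98 after reversal (21.4%, 13.8 to 30.9%), against 15.6, 29.1 and 41.8% unthinned and at most 0.142% of thinned tubule cells. Gzmk UMIs were thus spread over many cells, with at most 8 in 1 cell. In sham it had 14 UMIs in 5 of the 8 cells, or 708 CPM, the highest of the 4 levels.

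Over the whole cytotoxic list, 2 of 19 genes were at least 2-fold higher at day 7 than at day 2 (Ccl3 and Cx3cr1) and 2 were lower (Ccl5 and Serpinb9), with a median of 0.14, beside 6.71% higher and 1.92% lower of all genes. Between day 7 and reversal none of 19 was higher and 5 were lower (Gzma, Gzmb, Ccl3, Zeb2 and Cx3cr1), with a median of -0.38, beside 3.45% higher and 3.23% lower of all genes. Between day 2 and reversal 1 of 16 was higher (Gzmk) and 3 were lower (Gzma, Gzmb and Serpinb6b), with a median of -0.37, beside 7.31% higher and 1.48% lower of all genes. Without the tubule- or phagocyte-rich cells 2 of 16 were higher at day 7 than at day 2 (Gzmk at 1.09 and Eomes at 1.07) and none was lower, beside 6.11% higher and 1.41% lower of all genes in that set, while Ccl3 and Cx3cr1 were at 0.87 and 0.60 on fewer than 30 UMIs. In the same set 2 of 16 were lower after reversal than at day 7 (Gzma and Gzmb) and none higher, beside 2.56% lower and 1.75% higher of all genes, and 2 of 15 were higher and 2 lower after reversal than at day 2, beside 7.54 and 1.57%. For reversed over day 7 the direction of Ccl3 turned in this set, at 0.18. Zeb2 and Cx3cr1 were at -0.97 and -0.78, within 2-fold. Zeb2, Cx3cr1 and Ccl3 are also phagocyte genes, at 612, 643 and 304 CPM in phagocyte-gated cells at day 7 against 103, 74.3 and 148 CPM in CD8 cells, and the phagocyte UMIs in the gate were highest at that time. These CD8 levels were 16.9, 11.6 and 48.8% of the phagocyte level, and the part of phagocyte RNA in them was not tested. Ccl5 was at 14965, 10091, 4923 and 5337 CPM, with a ratio of -1.03 (-1.12 to -0.94) for day 7 over day 2. In the set without the tubule- or phagocyte-rich cells it was at 11795, 6598 and 6817 CPM at day 2, day 7 and after reversal, and the ratio of -0.84 was within 2-fold. Nkg7 was at 4398, 2178, 2111 and 1915 CPM, with log2 ratios of -0.04 for day 7 over day 2, -0.14 for reversed over day 7 and -0.18 for reversed over day 2.

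Among the 3 libraries with more than 8 CD8 cells, Klf2 of the naive list and Ly6c2 of the migration list were lowest after reversal, and Cxcr6, Rgs1 and Xcl1, 3 genes of the residence list, were lowest at day 2, which did not hold for Cd69 and Runx3 of that list. Klf2, a factor that drives S1pr1, the receptor for exit from tissue, was at 432 CPM at day 2, 297 at day 7 and 114 after reversal. Reversed over day 2 gave -1.83 (-2.33 to -1.34) on the log2 scale. Ly6c2 was at 1181, 668 and 331 CPM (-1.80, -2.10 to -1.51), and thinned cells with a Ly6c2 UMI were 27 of 45, 30 of 79 and 25 of 98, against 0.907, 2.43 and 0.498% of tubule cells. Both genes stepped down from day 2 to day 7 and again to reversed UUO. Cxcr6 was at 368, 613 and 631 CPM, a ratio of 0.72 (0.36 to 1.10) for day 7 over day 2 and of 0.04 (-0.21 to 0.30) for reversed over day 7. Its share among thinned cells was 26.7% (14.6 to 41.9%) at day 2, 43.0% (31.9 to 54.7%) at day 7 and 46.9% (36.8 to 57.3%) after reversal, against at most 0.406% in tubule cells. Rgs1, a regulator of G-protein signalling, was at 170, 252 and 493 CPM, and the chemokine Xcl1 at 115, 186 and 314 CPM. Their ratios for reversed over day 2 were 1.48 (0.99 to 2.00) and 1.38 (0.79 to 2.00). Cd69, an activation antigen that retains T cells in tissue, was at 147, 154 and 90.5 CPM, lowest after reversal (-0.64, -1.30 to 0.02, for reversed over day 2), and Runx3 was at 257, 159 and 212 CPM.

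The same groups are given as lists, each count beside the share of all genes past 2-fold in its comparison. For day 7 over day 2 that share was 6.71% higher and 1.92% lower, for reversed over day 7 3.45 and 3.23%, and for reversed over day 2 7.31 and 1.48%. The naive and central memory list had none of 8 genes past 2-fold for day 7 over day 2, with all 8 ratios below 0 and a median of -0.29. Reversed over day 7 had 1 of 10 higher (Igfbp4) and 2 lower (Klf2 and Satb1), with ratios from -1.41 to 1.47 and a median of -0.01. Igfbp4 was at 290 CPM in tubule cells of the reversed library against 76.2 CPM in CD8 cells, and without the tubule- or phagocyte-rich cells its ratio was 0.82. Reversed over day 2 had 1 of 8 lower (Klf2) and a median of -0.38. The migration list had 1 of 11 lower for reversed over day 2 (Ly6c2), with 5 ratios above 0 and a median of -0.17, 1 of 11 higher for day 7 over day 2 (Itgal) and 1 of 11 lower for reversed over day 7 (Ccr2). Il7r and Tcf7 were not lowest after reversal, and with Lef1 they stayed within 2-fold in these comparisons, at 188, 149 and 167 CPM for Il7r and 110, 55.7 and 85.7 CPM for Tcf7. The residence list had a median of 0.59 over 9 genes for day 7 over day 2, with Nr4a1 as the gene past 2-fold (32 of its 43 UMIs were in 1 cell), and of 0.35 over 8 genes for reversed over day 2, with Rgs1 and Xcl1 past it and 6 of the 8 ratios above 0. Without the tubule- or phagocyte-rich cells the first of these medians was 0.36 over 6 genes. Itgae, the integrin chain CD103 of many epithelial resident T cells, was low throughout, at 13.8, 21.2 and 31.0 CPM.

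**Figure D4:**
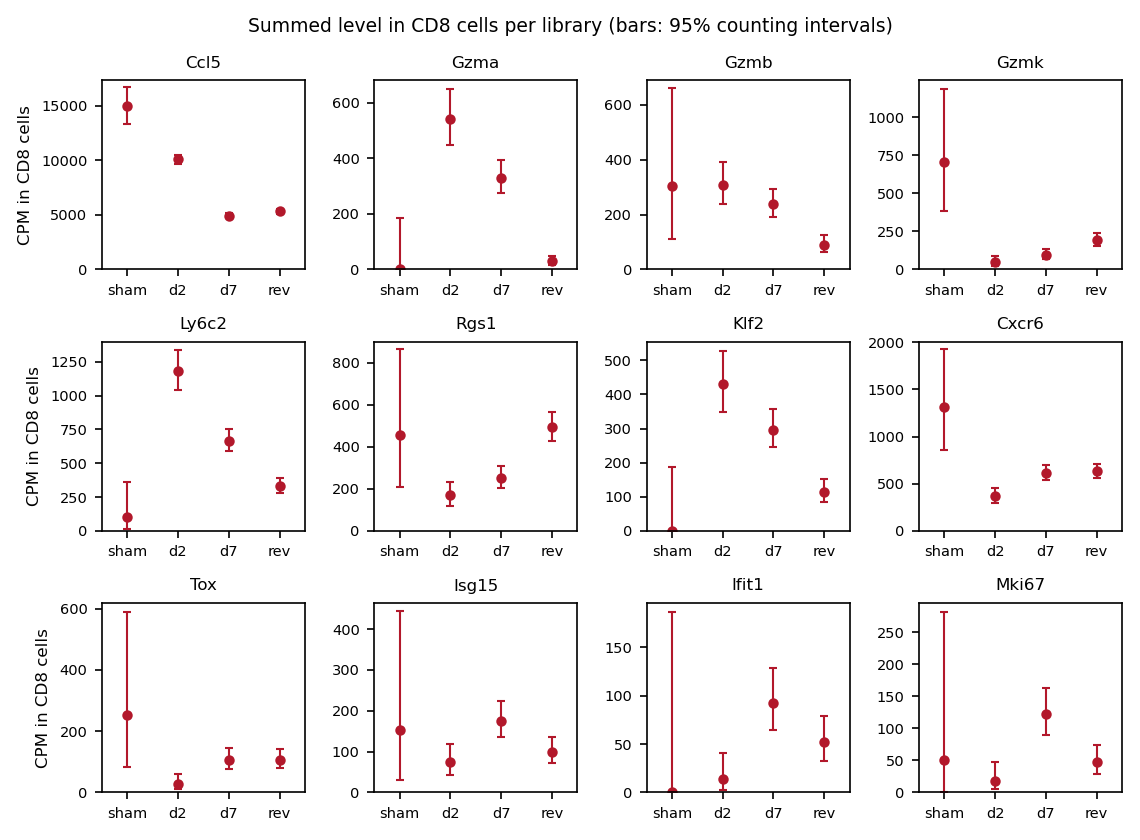
CPM of 12 genes in CD8 T cells of the sham, day 2 (d2), day 7 (d7) and reversed (rev) libraries, with 95% counting intervals. Gzma, Gzmb, Ly6c2 and Klf2 are lowest after reversal among day 2, day 7 and reversed UUO, whereas Gzmk is highest there, at 191 CPM; the sham intervals are wide because that library held 8 CD8 cells.

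Levels of interferon-stimulated genes were mostly higher at day 7 than at day 2 or after reversal, but against the reversed library most differences stayed within 2-fold. Of 14 genes of the list that could be compared, 8 were at least 2-fold above day 2 (Isg15, Ifit1, Irf7, Bst2, Isg20, Rtp4, Ifi27l2a and Xaf1) beside 6.71% of all genes, with a median of 1.15. The other ratios were above 0 too except that of Ly6e, which was at 905, 774 and 584 CPM. All 15 ratios of reversed over day 7 were below 0, with a median of -0.57, and 2 genes, Gbp2 and Xaf1, were past 2-fold, beside 3.23% of all genes. Ifi27l2a, an interferon-induced mitochondrial protein, was at 303, 875 and 512 CPM at day 2, day 7 and after reversal, with ratios of 1.50 (1.12 to 1.89) and -0.76 (-1.01 to -0.51). Bst2 (tetherin, which holds budding virus at the membrane) was at 73.5, 220 and 112 CPM, and Isg15 was at 73.5, 175 and 100 CPM. Xaf1 was at 27.6, 103 and 33.3 CPM, in 27 cells at day 7 with at most 3 UMIs in 1 cell. Ifit1 rested on fewer cells, at 13.8, 92.8 and 52.4 CPM with 16 of its 35 day 7 UMIs in 1 cell. Without the tubule- or phagocyte-rich cells Ifit1 was at 16.5, 128 and 30.8 CPM. Its ratio of reversed over day 7 was then -1.76, past 2-fold, as were those of Gbp2 (-1.16) and Xaf1 (-1.50). In sham, Ifi27l2a was at 910 CPM in 4 of 8 cells.

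These genes are also made by phagocytes and tubule cells, and in both they were higher at day 7 than at day 2 too: Isg15 was at 64.3 and 212 CPM in phagocyte-gated cells and at 22.3 and 88.9 CPM in tubule cells. The share of thinned CD8 cells with an Isg15 UMI was 4.44, 13.9 and 8.16%, against 1.90, 7.51 and 4.20% of tubule cells. The 7 phagocyte markers at day 7 stood in CD8 cells at 6.47 to 10.95% of their level in phagocyte-gated cells, with a median of 8.05%, in 1287 such cells. The 20 interferon genes with a value stood at 14.9 to 351% of their phagocyte level, with a median of 77.3%, and 6 of them were above it. The 8 past 2-fold, chosen by their CD8 level at day 7, stood at 38.5 to 351%. The part of carried-over RNA in these levels was not tested. Without the 11 day 2 and day 7 cells rich in tubule or phagocyte UMIs, 10 of 13 interferon genes were at least 2-fold higher at day 7 than at day 2. This stood beside 6.11% of all genes in that set, with a median of 1.32 against 0.09 over all. The phagocyte difference remained in that set: C1qa was at 27.5 CPM at day 2 and 432 at day 7 (3.56, against 3.57 over all cells). Lyz2 was at 132 and 810 CPM (2.53). The set therefore does not separate CD8 transcripts from phagocyte RNA. The interferon-stimulated response element shown above was present in 8 of 13 promoters of the list (61.5%), against 3.46% of all promoters. The list was made up of genes named for their response to interferon. This share therefore describes the choice of list and does not bear on the day 7 levels in CD8 cells.

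Over all CD8 cells, most cell cycle genes were higher at day 7 than at day 2, mostly within 2-fold, and most were at least 2-fold lower after reversal. The difference from day 2 was smaller without the cells rich in tubule or phagocyte UMIs, as given in the next paragraph. Of 18 genes 6 were at least 2-fold above day 2 (Mki67, Top2a, Cdk1, Ube2c, Mcm3 and Cenpa), beside 6.71% of all genes, with 17 of the 18 ratios above 0 and a median of 0.73. Of 19 genes 11 were at least 2-fold lower after reversal than at day 7, beside 3.23% of all genes, with all 19 ratios below 0 and a median of -1.12. Mki67, a protein of dividing cells, was at 18.4, 122 and 47.6 CPM, and the replication helicase subunit Mcm3 was at 27.6, 109 and 26.2 CPM. The histone variant H2afz was at 1061, 1536 and 526 CPM, with a ratio of -1.53 (-1.75 to -1.30) for reversed over day 7. Cells with at least 2 UMIs of 8 cycle genes were 2 of 45 at day 2, 15 of 79 at day 7 (19.0%) and 5 of 98 after reversal. At 1000 UMIs per cell they were 4.44% (0.543 to 15.1%), 10.1% (4.47 to 19.0%) and 2.04% (0.248 to 7.18%), against 0.569 to 1.54% of tubule cells, and in CD4 cells 0 of 15, 8 of 66 (12.1%) and 1 of 53. The intervals of these 3 thinned CD8 shares overlapped. Unthinned, CD4 cells gave 1 of 15, 25 of 66 (37.9%) and 9 of 53 (17.0%). With 500 UMIs per cell the day 7 share was 3.80% in CD8 and 10.6% in CD4 cells.

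The day 7 cell cycle level rested in part on cells that also carried phagocyte or tubule UMIs. Without those cells 2 of 11 genes were at least 2-fold above day 2, beside 6.11% of all genes, with a median of 0.03, and Mki67 was at 22.0, 80.6 and 30.8 CPM. The median of reversed over day 7 was then -0.90 over 13 genes, with 6 at least 2-fold lower, beside 2.56% of all genes, and all 13 below 0. The order of H2afz between day 2 and day 7 turned, at 1199, 996 and 471 CPM. Leaving out the cycling cells takes away cells chosen by genes of this list, so the list's values without them are not read.

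**Figure D5:**
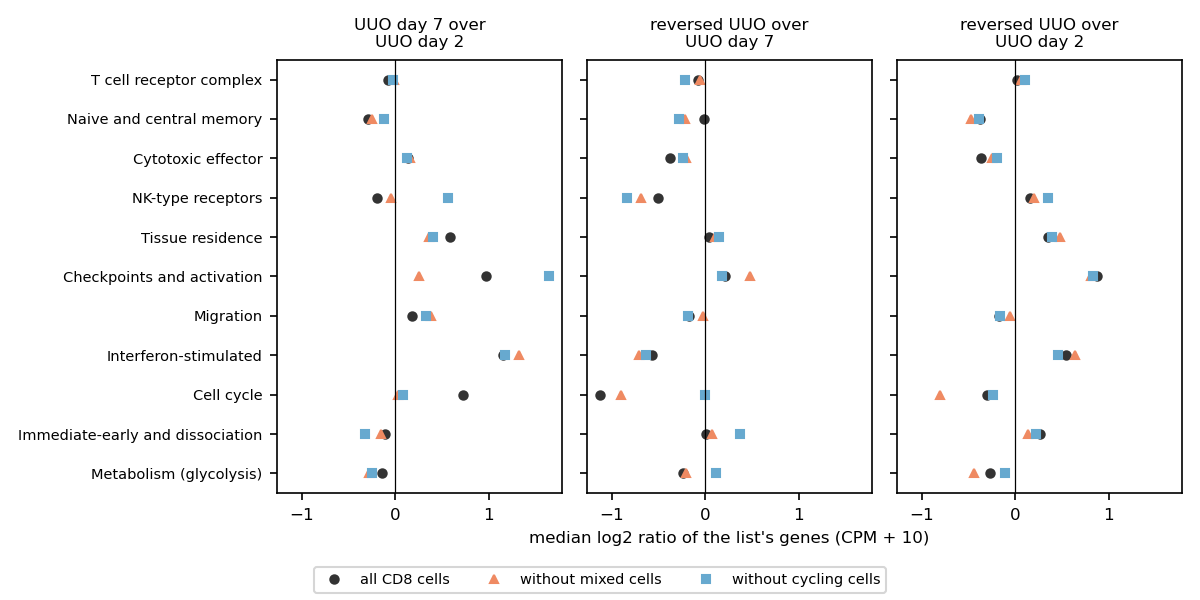
Median log2 ratio of each gene list in CD8 T cells for the library comparisons, over all cells, without the cells rich in tubule or phagocyte UMIs (mixed cells in the legend), and without cycling cells. The interferon-stimulated median for day 7 over day 2 is 1.15, 1.32 and 1.18 in the 3 versions, and the cell cycle median is 0.73 over all cells and 0.03 without the mixed cells; its point without cycling cells is fixed by how those cells were chosen.

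Among checkpoint and activation genes, Tox, a factor of chronically stimulated T cells, was at 27.6, 106 and 107 CPM at day 2, day 7 and after reversal, with log2 ratios of 1.63 (0.61 to 2.62) for day 7 over day 2 and of 0.01 (-0.58 to 0.61) for reversed over day 7. Thinned cells with Tox were 2.22, 16.5 and 10.2%, against at most 0.203% of tubule cells. Pdcd1 was at 50.5, 66.3 and 78.6 CPM, and Lag3 at 23.0, 21.2 and 52.4 CPM. Of 6 genes of the list that could be compared, 3 were at least 2-fold above day 2 at day 7 (Tox, Tnfrsf4 and Irf8), beside 6.71% of all genes, with a median of 0.97, but 27 of 34 Tnfrsf4 UMIs and 40 of 69 Irf8 UMIs were in 1 cell. Without the tubule- or phagocyte-rich cells the median was 0.25 over 4 genes. Reversed over day 2 also had 3 of 6 higher (Tox, Tnfrsf4 and Nr4a2), beside 7.31% of all genes, with a median of 0.88. Without the tubule- or phagocyte-rich cells Nr4a2 was at 0.78 in this comparison, within 2-fold, and Tox at 1.89. Tnfrsf4 without those cells was at 27.5, 22.0 and 111 CPM at day 2, day 7 and after reversal, a ratio of 1.69 for reversed over day 2, and its 36 reversed UMIs were in 4 cells. The T cell receptor complex had no gene past 2-fold among 12 for day 7 over day 2 or for reversed over day 7. Reversed over day 2 had 1 lower, the signalling chain gene Cd247 (-1.05, -1.69 to -0.42), beside 1.48% of all genes, and Cd247 was at -0.93 without the tubule- or phagocyte-rich cells. The glycolysis list had 1 of 9 past 2-fold, Pfkp, which was lower after reversal than at day 7, beside 3.23% of all genes.

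Ranked by size alone, the genes highest at day 7 over day 2 were phagocyte and dendritic cell genes: 9 of the 10, including Ccl17, H2-Eb1, Apoe, H2-Aa, C1qa and Cd74, were higher in phagocyte-gated cells than in CD8 cells, and 179 of the 192 Ccl17 UMIs were in 1 cell. The ranking was therefore repeated, after the data had been seen, without genes higher in phagocytes and without genes held mostly by 1 cell. Mki67, Amica1, Top2a, Mcm3, Tox and Xaf1 were then among the 10 highest at day 7 over day 2. The genes lower at day 7 than at day 2 included Tsc22d3, a glucocorticoid-induced factor (-1.81, -2.47 to -1.16), and Ccl5. For reversed over day 7 the surface receptor gene Cd96 (1.52, 0.74 to 2.29), Gpr174 (1.09, 0.37 to 1.82) and Gzmk were among the highest, and Mcm3, H2afz, Vim (-1.40, -1.74 to -1.06), Lgals1 (-1.36, -1.60 to -1.13) and Anxa2 (-1.35, -1.87 to -0.85) among the lowest. Lgals1 and Anxa2 were at a like level at day 7 and day 2 over all cells, with ratios of 0.01 and 0.04. When the tubule- or phagocyte-rich cells were left out, Lgals1 was at 1496, 1114 and 582 CPM at day 2, day 7 and after reversal, with ratios of -0.42 for day 7 over day 2 and -0.92 for reversed over day 7. Vim was then at -0.96 for reversed over day 7, so both were within 2-fold, and Anxa2 was at -1.04.

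The 8 sham cells are given as values. All 8 held Ccl5, Nkg7, Trac and Trbc2, and 7 held Cxcr6, at 1314 CPM. Gzmk was in 5 cells, the receptor gene Cd160 in 5 (556 CPM) and the gamma chain gene Tcrg-C2 in 5 (758 CPM, against 4.60 to 52.4 CPM in the other libraries). Tox was in 4 cells. Ccr7, Lef1, Tcf7, Il7r, Klf2 and S1pr1 had no UMI in any of them, which allows up to 152 CPM each. Other genes of the naive and central memory list did have UMIs in sham: Actn1 had 3 (152 CPM), and Igfbp4 and Foxp1 had 2 each (101 CPM). The whole list held 7 UMIs there, or 354 CPM. Klf2 was at 432 and 297 CPM at day 2 and day 7, above the limit of 152 CPM, and below it after reversal. Il7r was at 188 CPM at day 2 and 167 after reversal, above it as point values without counting error, and below it at day 7. Il7r is therefore not read as different from sham. Ccr7, Lef1, Tcf7 and S1pr1 were at or below 110 CPM in every other library and could not be distinguished from sham at this depth. The tubule markers were at their highest here, at 2427 CPM. The cell cycle list was at its highest here too, at 10061 CPM (199 UMIs) against 3676, 6010 and 2794 CPM in the other libraries. Of 32 H2afz UMIs 24 were in 1 cell, as were all 5 of Top2a, and 1 cell of the 8 held at least 2 UMIs of the 8 cycle genes.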

How the data were processed

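Droplet 3′ V2 libraries of 4 groups were used, and the Smart-seq2 sample of 768 wells was not used here. The deposited values are UMI counts for each gene in each cell, not normalized, which the authors made with Cell Ranger and STAR on GRCm38 (mm10), per the submitters' processing notes, in which no versions are stated. Every column was assigned to a sample. Of 28692 gene identifiers, 28339 matched GENCODE M21 on GRCm38. Cells were gated as described above. The members and the gene lists were chosen with earlier results of these data known.

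UMIs were summed per library and expressed as CPM. Ratios between libraries used a pseudocount of 10 CPM with exact conditional binomial 95% intervals, and shares had exact Clopper-Pearson intervals. To compare shares, cells were thinned to 1000 UMIs, which left out none of the CD8 cells. Sums of at least 10 cells (3 CD8, 3 CD4 and 2 NK sums, in 1 fit that shares the spread) were tested with edgeR 4.0.16 (TMM factors, filterByExpr, quasi-likelihood test, library as a block, adjusted p under 0.05) in R 4.3.3, and DESeq2 1.42.0 was an alternative. Animals were pooled, so the adjusted p-values measure recurrence across libraries. Each SE is the absolute log2 difference divided by the square root of the F statistic of its test, so it adds nothing to that test. The scripts were tested on simulated data. Doublets were not removed in the main analysis. As an alternative the highest Scrublet scores (scanpy 1.11.5) were taken away, 0.8% for every 1000 deposited cells, and this cost 0, 1, 3 and 3 CD8 cells. Other tools were Python 3.11.15, numpy 2.4.6, pandas 2.3.3, scipy 1.17.1 and matplotlib 3.10.9.

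Named genes were members of the lists, the 10 highest and 10 lowest per library comparison with at least 30 UMIs in both libraries together, 100 CPM and 10% of cells in the higher library and no higher level in tubule cells, and the 15 highest and 15 lowest per test. Results of 2 genes are not reported here, and gene lists were counted without them.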

Additional observations from a re-analysis of the deposited data

How the results depend on the processing

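The limits of these data are the single pooled library per group, the 8 sham cells, and UMIs of tubule and phagocyte genes in the gate. Whether these came from free or adhering RNA was not tested. No paired analysis was possible because each group had 1 library; the library block is the pairing of gates within a library. Removing the cells rich in tubule or phagocyte UMIs was chosen after seeing the data, and the other alternatives were listed earlier. With at most 20% mitochondrial UMIs the CD8 shares were 1.08% in sham, 2.77% at day 2 and 4.49% after reversal. With a minimum of 60 UMIs, which tests fewer genes, counts past 2-fold were 64 higher and 29 lower for day 7 over day 2, 56 and 56 for reversed over day 7, and 59 and 23 for reversed over day 2. Without the tubule- or phagocyte-rich cells, 29 were lower at day 7 than at day 2, and 50 higher and 73 lower after reversal than at day 7. With at least 2 CD8 UMIs the latter pair was 69 and 72. For reversed over day 2, 66 genes were lower with a pseudocount of 1 CPM and 69 with TMM factors.

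Without the library block 16 genes were higher and 21 lower than in CD4 cells, and 24 and 45 against NK cells. DESeq2 gave 28 and 28, and 31 and 46. Leaving out 1 library gave 56 to 87 higher and 40 to 69 lower against CD4 cells, and 14 to 103 and 37 to 99 against NK cells. Of the 178 calls against CD4 cells 56 remained with DESeq2, 37 without the block and 86 to 124 without 1 library, and of the 201 against NK cells 77, 69 and 50 to 176. The cycling share at day 2 was 0% at 500 UMIs per cell, and at day 7 it was 3.80% at that depth and 19.0% unthinned.

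Some ratios changed sign. Tnfrsf4 for day 7 over day 2 was -1.40 with at least 2 CD8 UMIs and -0.23 without the tubule- or phagocyte-rich cells. For reversed over day 7, Ccl3 was 0.14 with the highest Scrublet scores removed, 0.16 without cycling cells and 0.18 without the tubule- or phagocyte-rich cells. Sign changes of cell cycle genes without cycling cells follow from how those cells were chosen and are not read: Cdk1 was -1.03 for day 7 over day 2, Mki67 and Birc5 were 0.14 and 0.34 for reversed over day 7, and 2810417H13Rik was 1.05 for reversed over day 2. Without the tubule- or phagocyte-rich cells 4 of the 164 fitted calls against CD4 cells changed sign, among them Atp6v1g3 at -0.16, and so did 2 of 190 against NK cells. A further call against NK cells did so with the highest Scrublet scores removed, and 1 without day 7. The cause was not tested where the alternative does not itself remove the cells that hold the gene. Of the list medians 291 stayed within their limits and 28 moved, of the shares of cells with a UMI 869 stayed and 643 moved, all with another thinning depth or none, and of the main counts and shares 116 stayed and 34 moved.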
